A study of Homo sapiens with 4 samples.

Results

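The genes examined here build and run the DNA replication fork. They are 53 genes of origin recognition, helicase loading and activation, DNA polymerases, the sliding clamp and its loader, Okazaki fragment processing, single-strand binding, chromatin assembly behind the fork, fork protection and entry into S phase. They were picked by name for their function, and each name was matched to the deposited table through its Ensembl identifier. Earlier results of these data were known when these genes and the other gene lists below were chosen. All 53 were found among 17656 genes listed, and all 53 passed the filter on low values that left 14582 genes for testing.

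Transcript levels were measured in 4 RNA libraries of U937, a monocytic line established from a human leukemia. The 2 libraries labelled NC were described as receiving no treatment, and the 2 labelled sh-ZNF217 as carrying a ZNF217 knockdown. ZNF217 is a zinc finger factor found in corepressor complexes. The study's methods describe stable and inducible hairpin lines in a pLKO.1-puro lentiviral vector, while its account of the U937 RNA sequencing speaks of a Cas9 knockout, and which of them these libraries hold was not resolved here. Whether replicate libraries were grown as separate cultures is stated neither in the labels nor in the study's text, so p-values cover the spread between these libraries only, which may be technical.

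Replication is prepared in G1. The origin recognition complex (ORC1 to ORC6), CDC6 and CDT1 load the ring of MCM2 to MCM7 onto DNA, and the kinases CDK2 with cyclin E and CDC7 with DBF4 then turn that ring into a moving helicase with CDC45 and the GINS proteins. Polymerases follow, held to DNA by the ring-shaped clamp PCNA. E2F transcription factors, which are freed from RB proteins when cells commit to divide, drive many of these genes, and growing leukemia cells express them at high levels. The comparison asks whether the level of these transcripts differed between the groups.

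Values are TPM, a relative transcript abundance that accounts for gene length and is scaled to the same total in every library. The depth of the libraries was unknown, since TPM keeps no read counts. Differences are log2 fold changes of TPM + 1, sh-ZNF217 minus NC, tested with limma and adjusted over all tested genes. A gene is said to have fallen or risen where its adjusted p was below 0.05, and a stricter rule that follows the study's fold limit also asked for an absolute log2 fold change above 0.5. ZNF217 itself measured 36.1 and 36.7 TPM in NC, and the libraries labelled sh-ZNF217 had 35.8 and 35.0 TPM (log2 fold change -0.04, limma adjusted p = 0.740). The targeted transcript thus did not mark the group, and every direction below was drawn from the label of the library. Monocytic markers moved with the groups. MPO (0.085 to 0.513 TPM) and CD14 (0.760 to 2.79 TPM) were near 0 in this line. Of 11 tested markers of the line 7 rose, as did 9.77% of all tested genes. The summed level of the markers of the line was 4767 and 4768 TPM in NC against 7435 and 7352 TPM, with LYZ (lysozyme) as the main part. Markers of other cells stayed low in sum, at 6.96 to 12.5 TPM for B cells, 1.10 to 3.74 TPM for erythroid cells and 0.777 to 1.40 TPM for epithelial cells and fibroblasts. Those of T and NK cells summed to 87.1 and 70.1 TPM in NC against 102 and 113 TPM, nearly all of it NKG7, with CD3D, CD3E and CD8A not among the genes listed. Of these markers 3 of 3 were higher without overlap, as were 33.5% of all tested genes. CD2 rose (log2 fold change 1.2, limma adjusted p = 0.0308). Of the B cell markers CD22 rose (1.09, adjusted p = 0.0267) and PAX5 fell (-0.80, adjusted p = 0.0458). The part of these marker differences in the results below was not tested.

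Most transcripts of the replication fork stood below NC by modest amounts in the libraries labelled sh-ZNF217. Summed over the 53 genes, the NC libraries held 5235 and 5346 TPM and the libraries labelled sh-ZNF217 4493 and 4488 TPM, a difference of the mean of -15.1% (5291 ± 79.1 against 4491 ± 4.1 TPM, SD, n = 2 each). Of the 53 genes 47 had a negative difference (88.7%, against 47.5% of all tested genes), and the median log2 fold change was -0.23 against 0.02 over all tested genes. In 37 of the 53 (69.8%) both libraries labelled sh-ZNF217 lay below both NC libraries, as they did in 28.6% of all tested genes. In 2, DBF4 and CCNE2, both lay above, as they did in 33.5% of all tested genes. By limma 14 genes passed the adjusted p (16.9% of all tested genes did). All 14 fell (26.4%, against 7.11% of all tested genes and 11.9% of those with a mean of 20 to 500 TPM) and 0 rose (background 9.77%). At an unadjusted p below 0.05, 33 of the 53 were lower, as were 15.5% of all tested genes, and 1 was higher. By the stricter rule 1 gene fell, POLD2, and 0 rose, where 8.72% of all tested genes passed, 2.46% lower and 6.26% higher. Exons of 25 of the 53 genes overlap those of another annotated gene, 8 of the 14 among them, and the 28 without overlap had a median of -0.19 with 6 fallen. In bulk RNA, fewer cells in S phase and less of each transcript per cell cannot be told apart.

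The count of 14 rested on all 4 libraries. Leaving out NC replicate 1 gave 7, leaving out NC replicate 2 gave 3 and leaving out either library labelled sh-ZNF217 gave 1, and it was also 1 when limma moderated the variances without a trend. By direction alone, 45 to 48 genes had a negative difference with any library left out.

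**Figure D1:**
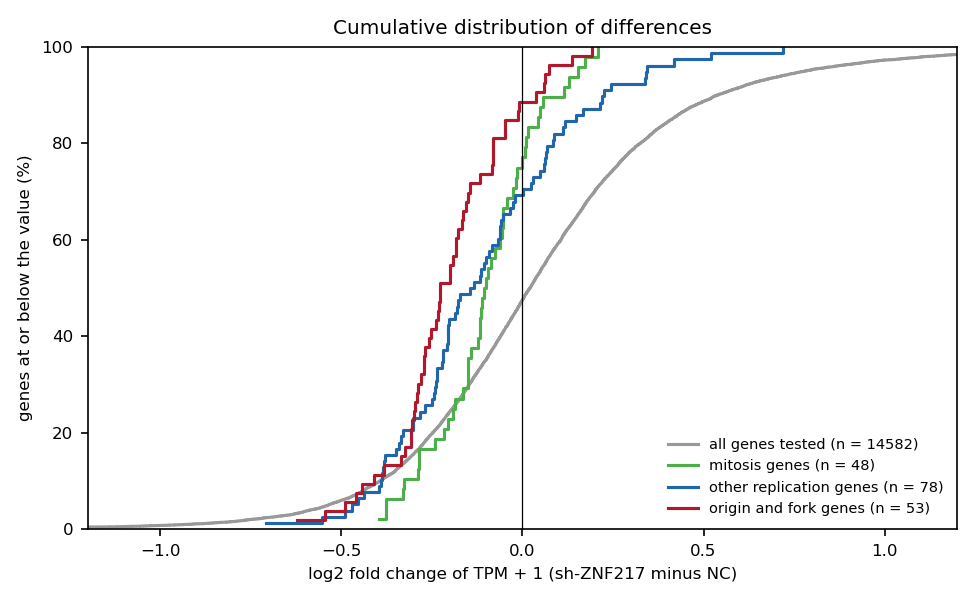
Cumulative share of genes, in percent, at or below each log2 fold change of TPM + 1 (sh-ZNF217 minus NC), with a line each for 14582 tested genes, 48 mitosis genes, 78 other replication genes and the 53 origin and fork genes. The line of the origin and fork genes lies leftmost over most of its course and crosses zero at 88.7%, against 47.5% for all tested genes.

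Expression levels of the 53 genes spanned a wide range. PCNA was the most abundant at a mean of 451 TPM over the 4 libraries, followed by MCM4 (313 TPM), MCM7 (270.3 TPM), SLBP (259 TPM) and RPA2 (241 TPM). At the other end stood ORC4 (7.11 TPM), ORC2 (19.1 TPM) and CHAF1B (22.9 TPM). Transcripts of the helicase core were thus far more abundant than those of the origin recognition complex. In NC they summed to 1474 and 1473 TPM over MCM2 to MCM7 against 254 and 259 TPM over ORC1 to ORC6. Protein was not measured. In the libraries labelled sh-ZNF217 these sums were 1186 and 1222 TPM and 238 and 224 TPM.

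**Figure D2:**
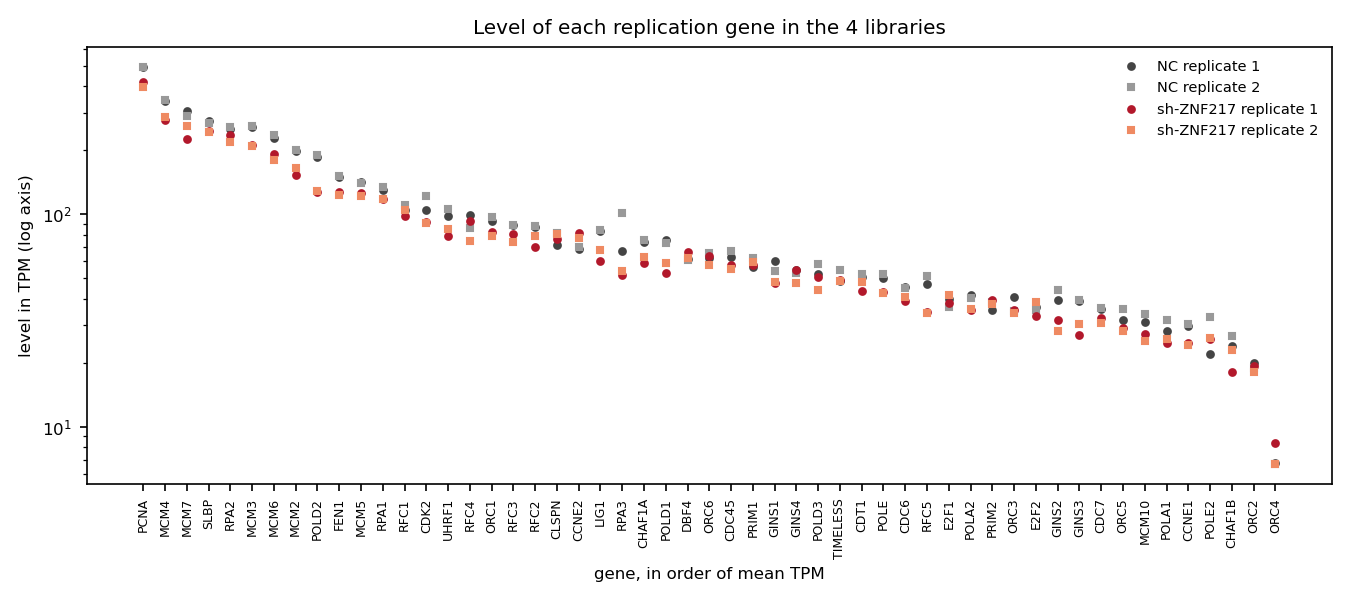
Level in TPM, on a log axis, of each of the 53 genes in the 2 NC libraries (grey) and the 2 libraries labelled sh-ZNF217 (red and orange), in order of mean TPM. PCNA stands highest at a mean of 451 TPM and ORC4 lowest at 7.11 TPM, and the grey points lie above the coloured ones in 37 genes.

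What these genes share beyond function was looked for in their promoters. RefSeq promoters (GRCh38.p14, 250 bases before to 50 after a start) were at hand for 45 of the 53 genes. An E2F-type site was taken as TTTGGCGC, TTTCCCGC, TTTCGCGC or TTTGCCGC on either strand, and 22 of the 45 genes held at least 1 (48.9%). The share was 3.31% of all 35116 promoters, 3.99% of all genes with a promoter and 6.89% of tested genes with a promoter. It was 24.6% of 65 other replication genes and 7.32% of 41 mitosis genes. In the shares of genes, a gene counts if any of its promoters held the word. A CCAAT box, the site of the factor NF-Y, was present in 55.6% of the 45 genes, 75.6% of mitosis genes and 43.2% of tested genes. The CHR element TTTGAA, known from promoters of late cell cycle genes, was found in DBF4 alone among the 45 (2.22%), but in 73.2% of mitosis genes and 13.6% of tested genes. Promoters were not matched for base composition, and a match of letters does not show that a factor binds there.

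Stretches of 30 bases upstream of the start are shown for some of the genes that fell and for E2F1 and E2F2, whose own levels hardly differed. Those of MCM3 and UHRF1, which also fell, are not shown. Those of CDC7, CDT1, MCM7, POLA1, POLA2 and RFC3, which did not pass the test, are not shown either. Capitals mark the E2F-type word, on the gene's strand or as its reverse complement. MCM6 (chr2:135876515-135876544 and chr2:135876577-135876606, minus strand) carried the word in 2 copies, beginning 90 and 152 bases before the start, each overlapping by 4 bases a further word on the opposite strand. The stretch of PCNA lies at chr20:5126663-5126692 (minus strand), that of GINS2 at chr16:85688967-85688996 (minus strand), that of LIG1 at chr19:48170440-48170469 (minus strand), that of E2F1 at chr20:33686387-33686416 (minus strand) and that of E2F2 at chr1:23531257-23531286 (minus strand).
MCM6, 90 bases before the start: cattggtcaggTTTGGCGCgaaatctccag
MCM6, 152 bases before the start: agggctttgcaTTTGGCGCgaaatcccttt
PCNA: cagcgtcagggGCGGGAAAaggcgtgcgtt
GINS2: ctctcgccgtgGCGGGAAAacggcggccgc
LIG1: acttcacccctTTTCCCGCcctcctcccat
E2F1: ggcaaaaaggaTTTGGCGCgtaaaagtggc
E2F2: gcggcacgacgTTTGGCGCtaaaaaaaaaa

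Genes with and without the word are described side by side, and the difference between these sets was not tested. The 22 genes with an E2F-type site had a median log2 fold change of -0.24 (range -0.46 to 0.06) and 8 of them fell. The 23 without had a median of -0.20 (range -0.55 to 0.14) and 5 of them fell. Of all tested genes 7.11% fell, as did 11.9% of those with a mean of 20 to 500 TPM. Both E2F1 and E2F2 belonged to the first group, and POLD2 to the second.

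**Figure D3:**
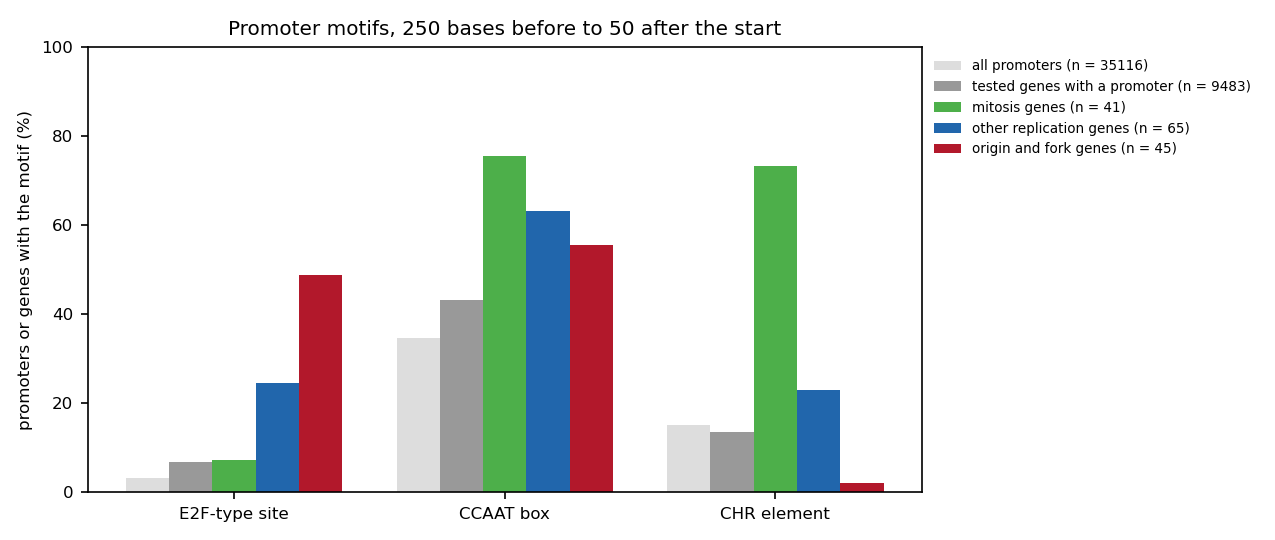
Share, in percent, of promoters or of genes with a RefSeq promoter that hold an E2F-type site, a CCAAT box or a CHR element, for all promoters, tested genes, mitosis genes, other replication genes and the origin and fork genes. E2F-type sites are at 48.9% in the origin and fork genes against 6.89% of tested genes, and the CHR element is at 2.22% against 73.2% in mitosis genes.

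Transcripts of the helicase core were lower for every subunit. All 8 genes of licensing and the helicase core were negative (47.5% of all tested genes were). Of the 8, 4 fell (50%, against 7.11% of all tested genes and 11.9% of those with a mean of 20 to 500 TPM). Summed over MCM2 to MCM7 the mean was 1474 ± 0.734 TPM in NC against 1204 ± 25.2 TPM, a difference of -18.3% (SD, n = 2 each). MCM2 fell from NC levels of 199.6 and 201 TPM to 152 and 165 TPM (log2 fold change -0.34, SE 0.06, limma adjusted p = 0.0209). MCM3 went from 259 and 261 TPM to 211 and 209 TPM (-0.31, adjusted p = 0.0153). These subunits form part of a ring in which every position is held by a different MCM protein, so a cell needs all of them. MCM4 measured 339.9 and 345 TPM in NC against 279 and 287 TPM (-0.27, limma adjusted p = 0.0208). MCM6, with the paired E2F-type words shown above, measured 228 and 237 TPM against 192 and 179.5 TPM (-0.32, adjusted p = 0.0222). For MCM5 (141 and 140.2 TPM against 126 and 122 TPM, -0.18, limma adjusted p = 0.0729) and MCM7 (308 and 289 TPM against 226 and 259 TPM, -0.30, adjusted p = 0.0565) the groups were also apart but the test was not passed. MCM7 shares exons with AP4M1 on the other strand and with MIR93, so its value was uncertain.

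The transcript shares of the ring subunits were close between groups. As shares of the summed TPM of MCM2 to MCM7, MCM4 made up 23.1% and 23.4% in NC and 23.5% in both libraries labelled sh-ZNF217, and MCM3 made up 17.5% and 17.7% against 17.8% and 17.1%. The share of MCM5 was 9.57% and 9.52% against 10.6% and 9.99%. The shares of MCM2, MCM4 and MCM5 did not overlap between groups, and those of MCM3, MCM6 and MCM7 did. With 2 libraries against 2, an exact permutation test of a single value cannot go below p = 0.333, so these shares are descriptions. Such ratios do not depend on how a library is scaled.

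None of the genes that load the helicase passed the limma test with adjustment. ORC1, the subunit of the origin recognition complex whose level follows the cell cycle, measured 92.5 and 96.8 TPM in NC against 82.7 and 78.6 TPM (log2 fold change -0.23, limma adjusted p = 0.0609). ORC5 measured 31.9 and 36.0 TPM against 29.1 and 28.2 TPM (-0.23, adjusted p = 0.135). In the other 4 subunits the groups overlapped, from -0.12 in ORC3 to 0.14 in ORC4, the latter at 6.73 and 6.70 TPM against 8.34 and 6.69 TPM. Of the 6 subunits 2 were lower at an unadjusted p below 0.05, as were 15.5% of all tested genes. CDC6 and CDT1 bring the MCM ring to the origin. CDC6 measured 45.7 and 44.9 TPM against 38.9 and 40.6 TPM (-0.18, limma adjusted p = 0.126), and CDT1 measured 50.5 and 52.2 TPM against 43.6 and 47.8 TPM (-0.17, adjusted p = 0.186).

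Of 8 factors that fire the origin 7 were negative and 2 fell (25%, against 7.11% of all tested genes), both of them subunits of the GINS complex. GINS2 fell from 39.5 and 43.995 TPM to 31.8 and 28.4 TPM (log2 fold change -0.46, SE 0.10, adjusted p = 0.0316). GINS3 went from 38.9 and 39.6 TPM to 26.9 and 30.4 TPM (-0.44, adjusted p = 0.0275). GINS is a complex of 4 different proteins that joins CDC45 and the MCM ring. The remaining subunits did not pass the test, and a difference between subunits was not tested. GINS1 measured 60.4 and 54.3 TPM against 47.3 and 48.2 TPM (-0.26, limma adjusted p = 0.0756), and GINS4 overlapped at 54.7 and 52.8 TPM against 54.5 and 47.3 TPM (-0.08, adjusted p = 0.567). The share of GINS4 in the summed TPM of the complex was 28.3% and 27.7% in NC and 33.9% and 30.7% in the libraries labelled sh-ZNF217. GINS2 shares exons with GSE1 on the other strand, and GINS3 and GINS4 with antisense RNA genes, so part of their values was uncertain. MCM10, which helps to open the origin, measured 31.0 and 33.8 TPM against 27.3 and 25.3 TPM (-0.29, adjusted p = 0.0795). CDC45, the partner of the ring in the moving helicase, measured 62.8 and 67.1 TPM against 57.5 and 55.3 TPM (-0.20, adjusted p = 0.104), and CDC7 35.9 and 36.1 TPM against 32.5 and 30.6 TPM (-0.18, adjusted p = 0.153). None of these passed the test, though their groups did not overlap. DBF4, the activator of CDC7 kinase, lay higher at 66.2 and 62.4 TPM against 61.5 and 60.6 TPM in NC (0.07, limma adjusted p = 0.488). Its sign turned with a correction for GC content and transcript length (-0.05), and it overlaps SLC25A40 on the other strand.

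Of 9 polymerase and primase genes 8 were negative and 2 fell (22.2%, against 7.11% of all tested genes). The summed level of POLD1, POLD2 and POLD3 was 314 and 321 TPM in NC against 230.4 and 232 TPM. DNA polymerase delta, which synthesizes the lagging strand, held the gene that passed the stricter rule. POLD2 (ENSG00000106628, chr7:44114631-44124358, minus strand, hg38), its regulatory subunit, fell from 186 and 189 TPM to 127 and 129 TPM. The mean fell by 31.7%, at a log2 fold change of -0.55 (SE 0.05, 95% interval -0.67 to -0.42, limma adjusted p = 0.00491), and it kept an adjusted p below 0.05 under all 13 alternatives, from 0.00303 to 0.0482. Under the GC and length correction its value was -0.49, short of the fold limit. POLD1, the catalytic subunit, went from 75.9 and 73.0 TPM to 52.7 and 59.0 TPM (-0.41, limma adjusted p = 0.0258). It shares exons with another annotated protein-coding gene on the same strand. POLD3 was lower in both libraries but did not pass (-0.23, adjusted p = 0.164). POLD2 made up 59.1% and 59.0% of the summed TPM of these 3 subunits in NC and 55.2% and 55.6% in the libraries labelled sh-ZNF217. POLD4, a further subunit of polymerase delta, is not among the 53 genes and had a positive difference. It measured 36.5 and 27.5 TPM in NC against 36.4 and 49.9 TPM, so the groups overlapped (0.42, limma adjusted p = 0.185).

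The other polymerases were closer to NC than POLD1 and POLD2. POLE, the leading strand polymerase, measured 50.1 and 52.2 TPM against 43.2 and 42.5 TPM (log2 fold change -0.25, limma adjusted p = 0.0563). Its partner POLE2 had NC libraries at 22.1 and 32.7 TPM that enclosed both others (25.9 and 26.0 TPM). POLA1 (-0.24) and POLA2 (-0.19) of polymerase alpha were lower without passing, while the primase subunits that make the RNA primers overlapped between groups. PRIM1 stood at -0.01 (95% interval -0.20 to 0.17), and it shares exons with NACA on the same strand. PRIM2 measured 35.3 and 38.5 TPM against 39.3 and 37.7 TPM, at 0.06 (95% interval -0.14 to 0.26).

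**Figure D4:**
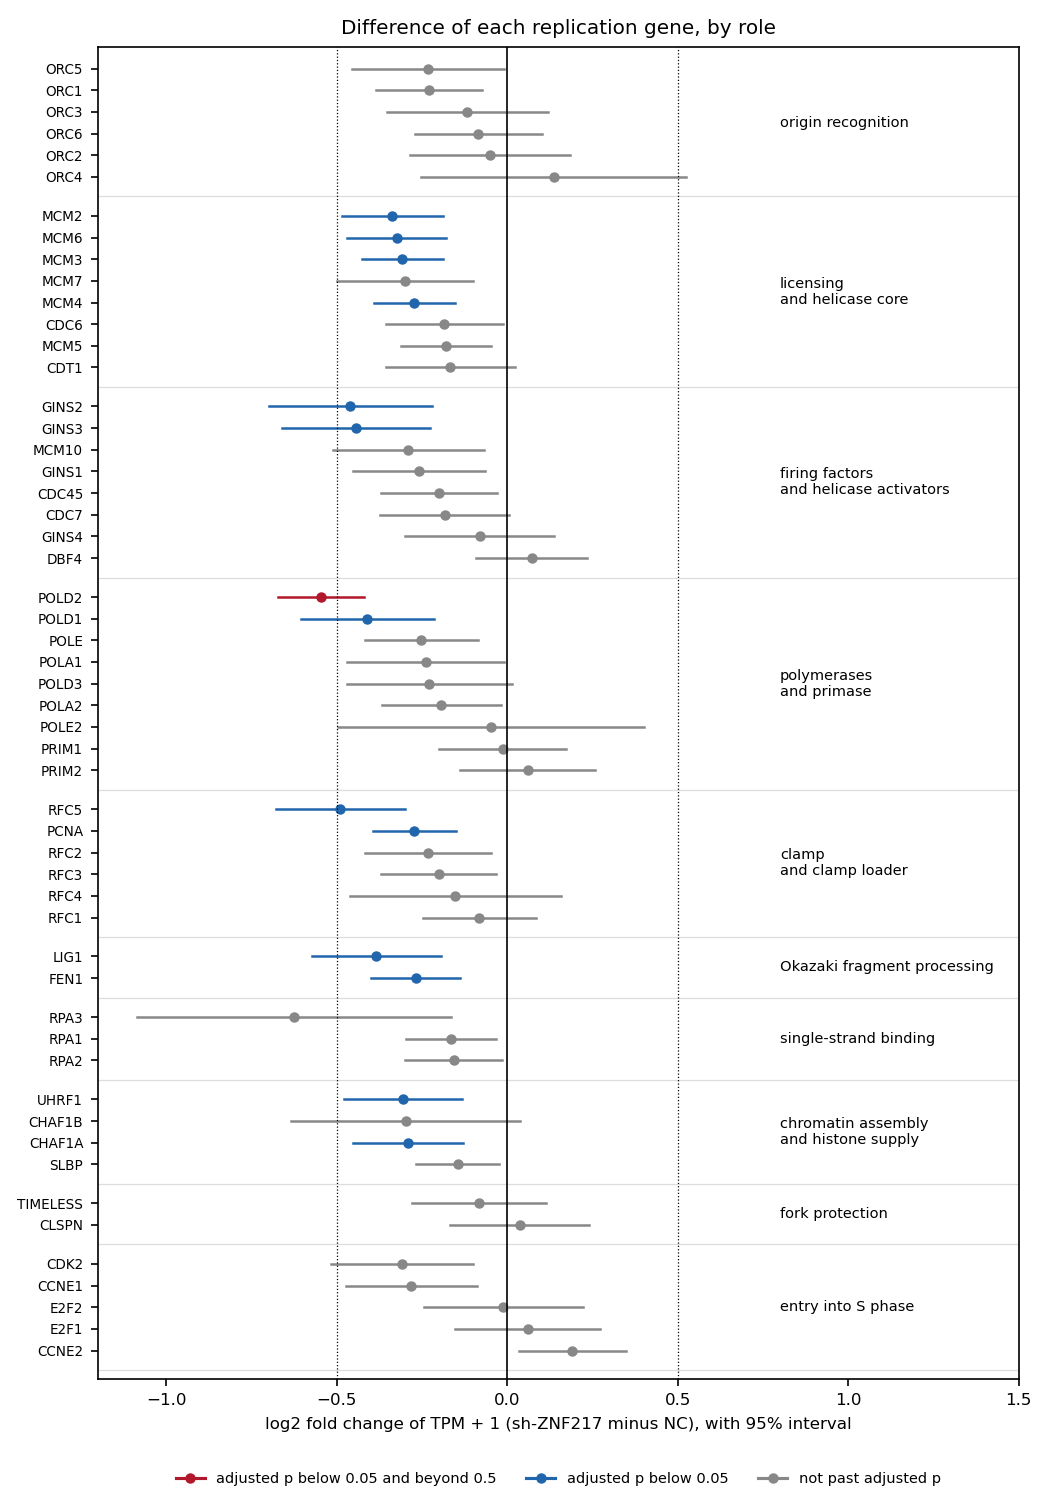
Log2 fold change of TPM + 1 (sh-ZNF217 minus NC) of each of the 53 genes with its 95% interval from limma, grouped by role, with dotted lines at the fold limit of 0.5. Blue marks genes with an adjusted p below 0.05 and red POLD2, which also passed the fold limit at -0.55, while E2F1, E2F2 and CCNE2 sit at or right of zero within their group.

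PCNA, FEN1 and LIG1 fell. PCNA, the clamp that tethers polymerases and recruits most of the enzymes named here, went from 494 and 492 TPM to 418 and 399 TPM (log2 fold change -0.27, SE 0.05, limma adjusted p = 0.0217). FEN1, which trims the flap of each Okazaki fragment, measured 151 TPM in both NC libraries against 127 and 123 TPM (-0.27, adjusted p = 0.0266). LIG1, the ligase that seals the fragments, went from 83.5 and 83.9 TPM to 60.4 and 67.8 TPM (-0.38, adjusted p = 0.0277). FEN1 shares exons with FADS2 on the same strand, and LIG1 with an antisense RNA gene. The clamp loader was uneven. RFC5, a small subunit, went from 46.8 and 51.0 TPM to 34.8 and 34.3 TPM (-0.49, limma adjusted p = 0.0155). It crossed the fold limit with median-of-ratios scaling (-0.52 there, -0.53 with the GC and length correction). With plain moderation its limma adjusted p was 0.0644, and PCNA, FEN1 and LIG1 did not pass there either. RFC5 overlaps WSB2 and RFC4 overlaps EIF4A2, each on the other strand. RFC1, the large subunit, overlapped at 104 and 110.4 TPM against 97.6 and 105 TPM (-0.08, adjusted p = 0.438), and RFC2 (-0.23), RFC3 (-0.20) and RFC4 (-0.15) lay between. The share of RFC5 in the summed TPM of RFC1 to RFC5 was 10.97% and 12.01% in NC against 9.23% and 9.35%.

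RPA, the complex that coats single-stranded DNA, was lower in all 3 subunits without passing the test. RPA1 measured 130.3 and 134 TPM against 117 and 118 TPM (log2 fold change -0.17, limma adjusted p = 0.0884), and RPA2 251 and 257 TPM against 237 and 219.6 TPM (-0.16, adjusted p = 0.121). RPA3 had the largest difference of the 53 genes (-0.62) but also a wide spread, at 67.0 and 101 TPM in NC against 51.8 and 54.3 TPM (limma adjusted p = 0.0735). Its value ran from -0.33 without NC replicate 2 to -0.92 without NC replicate 1, where it passed the stricter rule, and it overlaps UMAD1 on the other strand.

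Of the genes that restore chromatin behind the fork, UHRF1 and CHAF1A fell, but without mitochondrially encoded genes their limma adjusted p was 0.0580 and 0.0548. With a library left out the log2 fold change ran from -0.36 to -0.25 for UHRF1 and from -0.33 to -0.25 for CHAF1A. UHRF1, which brings the maintenance DNA methyltransferase to new DNA, went from 98.5 and 105 TPM to 79.3 and 85.3 TPM (log2 fold change -0.31, limma adjusted p = 0.0393). CHAF1A, the large subunit of the histone chaperone CAF-1, went from 74.1 and 75.4 TPM to 59.1 and 62.8 TPM (-0.29, adjusted p = 0.0375). CHAF1A overlaps UBXN6 on the other strand. CHAF1B, its partner, had a similar difference with more spread (-0.30, adjusted p = 0.184). SLBP, which binds the stem-loop of replication-dependent histone mRNA, measured 276 and 268 TPM against 247 and 245 TPM (-0.14, adjusted p = 0.0988). The fork protection genes overlapped between groups, with TIMELESS at 48.7 and 54.5 TPM against 48.8 and 48.5 TPM (-0.08) and CLSPN at 71.7 and 81.7 TPM against 76.6 and 80.6 TPM (0.04, turning to -0.05 without NC replicate 1 and to -0.08 with the GC and length correction).

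Of 5 regulators of S phase entry 3 were negative and 2 positive, and none passed the adjusted p. At an unadjusted p below 0.05, 2 were lower, as were 15.5% of all tested genes, and 1 was higher. Their summed level differed by -5.67% and did not overlap between groups. CCNE1 and CCNE2, which encode the cyclins that activate CDK2, lay on opposite sides. CCNE1 measured 29.6 and 30.3 TPM in NC against 24.7 and 24.3 TPM (log2 fold change -0.28, limma adjusted p = 0.0619). CCNE2 measured 69.0 and 69.9 TPM against 81.8 and 77.1 TPM (0.19, adjusted p = 0.0947), and it was the single gene of the 53 with a positive difference in all 13 alternatives. CCNE2 overlaps INTS8 on the other strand. The kinase CDK2 measured 105 and 122 TPM against 91.6 and 91.0 TPM (-0.31, adjusted p = 0.0591) and overlaps PMEL. E2F1 measured 39.9 and 36.5 TPM against 38.2 and 41.6 TPM (0.06, 95% interval -0.15 to 0.27, limma adjusted p = 0.661). E2F2 measured 36.5 and 35.6 TPM against 33.2 and 38.5 TPM (-0.01, 95% interval -0.24 to 0.22, adjusted p = 0.948). Neither interval reached the mean differences seen in POLD2, RFC5 or GINS2, which are among the largest of the 53 genes. The interval of E2F2 took in the median of the 53 genes (-0.23), and that of E2F1 did not. Differences between genes were not tested.

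**Figure D5:**
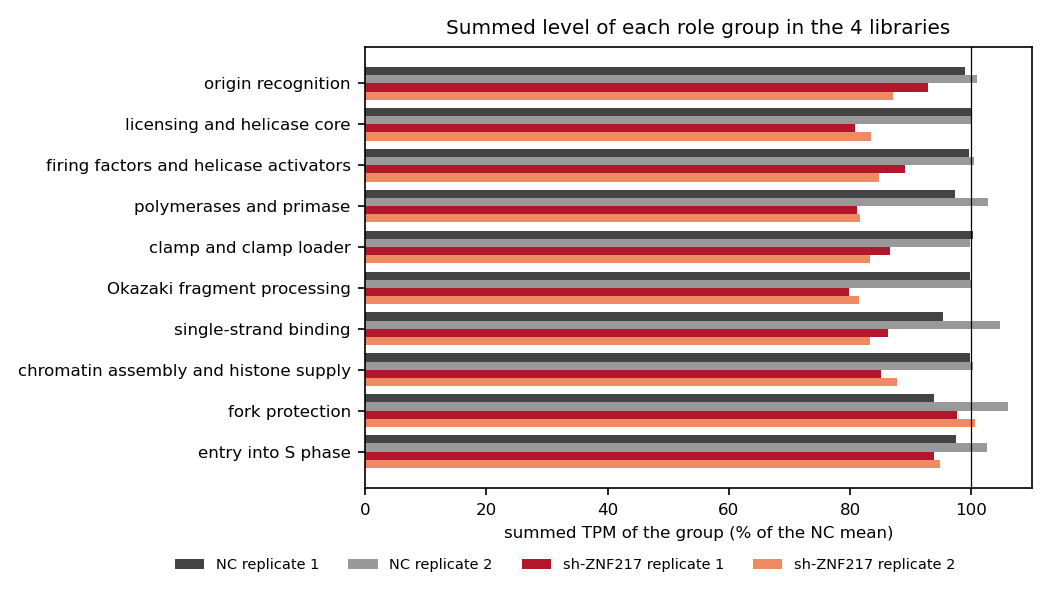
Summed TPM of each role group in each library, as a percentage of the mean of the 2 NC libraries, with bars from 0 in grey for NC and in red and orange for sh-ZNF217. Okazaki fragment processing has the largest difference of the mean (-19.3%), polymerases and primase follow (-18.6%), and the fork protection group overlaps between the groups (-0.83%).

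Other genes of replication were listed by function. Of 78 tested, 54 had a negative difference (69.2% against 47.5% of all tested genes, median -0.14). By limma 16 fell (20.5%, against 7.11% of all tested genes and 11.9% of those with a mean of 20 to 500 TPM) and 3 rose (9.77% of all tested genes did). The total of 19 past the adjusted p became 11 without NC replicate 1, 10 without NC replicate 2, and 2 and 4 without sh-ZNF217 replicates 1 and 2. Okazaki fragment and topology genes were negative in 10 of 10 and 4 fell. RNASEH2A, the catalytic subunit of the enzyme that removes RNA from DNA, went from 128 and 119 TPM to 90.8 and 88.8 TPM (log2 fold change -0.45, adjusted p = 0.0120), RNASEH2B stood at -0.33 (adjusted p = 0.0263) and TOP2B at -0.30 (adjusted p = 0.0195). Of 10 chromatin genes 3 fell. SSRP1, a subunit of the histone chaperone FACT, went from 257 and 256 TPM to 189.9 and 175 TPM (-0.49, adjusted p = 0.00863), and DNMT1 (-0.24, adjusted p = 0.0401) and RBBP4 (-0.22, adjusted p = 0.0482) were the others. In the next 3 lists 9.09% to 11.1% of genes fell, near that background. RECQL4 fell among 11 genes of licensing and firing (-0.39, adjusted p = 0.0294) and CDC25A, the phosphatase that activates CDK2, among 11 of fork protection and checkpoint (-0.39, adjusted p = 0.0147). Of 9 polymerase and clamp partners POLDIP2 fell (-0.34, adjusted p = 0.0263), and POLE4, a histone-fold subunit of polymerase epsilon, rose (0.34, adjusted p = 0.0389).

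Genes of nucleotide supply went both ways, with 3 of 11 fallen (27.3%, against 7.11% of all tested genes) and 2 risen (background 9.77%). Of 11, TYMS (log2 fold change -0.34, limma adjusted p = 0.0133), TK1 (-0.30, adjusted p = 0.0395) and NME1 (-0.47, adjusted p = 0.0165) fell, the enzymes named in front being those that make or salvage thymidylate. RRM2B, the ribonucleotide reductase subunit of resting cells, rose from 28.6 and 26.4 TPM to 40.7 and 39.1 TPM (0.52, adjusted p = 0.0152). SAMHD1, which degrades deoxynucleotides in non-dividing myeloid cells, rose from 4.73 and 5.16 TPM to 8.42 and 9.14 TPM (0.72, adjusted p = 0.0282). Both passed the fold limit, but with a pseudocount of 5 they stood at 0.47 each, under the limit, and SAMHD1 did not keep its adjusted p with any library left out. Among 16 genes of the E2F and RB system 3 fell (18.8%, against 7.11% of all tested genes and 11.9% of those with a mean of 20 to 500 TPM). SKP2, which marks the CDK inhibitor p27 for degradation, went from 69.8 and 65.7 TPM to 44.2 and 47.5 TPM (-0.55, adjusted p = 0.0107), CDCA7 stood at -0.44 (adjusted p = 0.0129) and TFDP1, the DNA-binding partner of E2F factors, at -0.27 (adjusted p = 0.0205).

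For comparison with a later phase of the cycle, 48 mitosis genes had a median of -0.10. Of them 37 were negative (77.1%, against 47.5% of all tested genes). In 52.1% both libraries labelled sh-ZNF217 lay below both NC libraries, against 28.6% of all tested genes. By limma 7 fell (14.6%, near the 11.9% of tested genes with a mean of 20 to 500 TPM). Those with the smallest p were AURKB (-0.33, adjusted p = 0.0147), UBE2C (-0.38, adjusted p = 0.0149) and CCNB1 (-0.29, adjusted p = 0.0195). The difference of their summed level was -7.44%, against -15.1% for the 53 origin and fork genes, and the difference between the lists was not tested. Of 10 tested brakes and G1 cyclin or kinase genes, CDKN1A (0.87, limma adjusted p = 0.00324) and CDKN2B (1.68, adjusted p = 0.0107) rose and 0 fell. Of all tested genes 9.77% rose and 7.11% fell. CDKN2B was low, at 3.06 and 1.86 TPM against 10.7 and 9.23 TPM, and its log2 fold change was 1.01 with a pseudocount of 5 and 2.01 with 0.1. Its adjusted p was 0.0662 and 0.0561 without sh-ZNF217 replicates 1 and 2.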

How the data were processed

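Total RNA of U937 cells was made into TruSeq libraries, 2 per group. Reads were filtered, and the submitters' processing notes name HISAT2 2.0.5 and hg38. No quantifier, annotation release or strand setting is named (not given in the sources used here), and the study calls its measure FPM. The values deposited by the authors were taken as TPM, because each column adds up to between 998932 and 999282 and low values follow no common step. TPM is relative, so when abundant genes rise the values of the rest are lowered. Column names carry NC or ZNFS1, D4 and a replicate number; what S1 and D4 stand for is not given in the labels, and columns were matched to samples because there are only 2 groups.

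Names and positions came from GENCODE 44. Genes reaching 1 TPM in 2 libraries were tested on log2(TPM + 1) with limma 3.58.1 in R 4.3.3 (group alone, trended and robust empirical Bayes), with Benjamini-Hochberg adjustment over 14582 genes. A log2 fold change on this scale understates changes of low genes. The procedure was tested on simulated data. Exons of 25 of the 53 genes overlap those of another gene. Promoters were RefSeq sequences. Figures were drawn with matplotlib 3.10.9. The 53 genes and all lists were chosen with earlier results of these data known. Values per library are given for genes past the adjusted p, MCM2 to MCM7, the genes of highest level and of largest and smallest difference in each role, and the 5 regulators of S phase entry; of the other lists, genes past the fold limit or at most the 3 with the smallest p per list. Further genes named for contrast (among them CDC6, GINS1, GINS4, MCM10, POLE, POLE2, PRIM1 and RPA1) were added after their values were seen. No other columns of sample values were present. A planned search of protein motifs was not run.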

Additional observations from a re-analysis of the deposited data

How the results depend on the processing

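Of the 53 origin and fork genes, 42 were negative as reported and under all 13 alternatives, and CCNE2 was positive under all. Their median ran from -0.19 without mitochondrially encoded genes to -0.26 with median-of-ratios scaling. Genes past the stricter rule numbered 2 with median-of-ratios scaling, 2 with the GC and length correction (RFC5 and GINS3) and 1 to 4 with a library left out, against 1. Genes past the adjusted p alone numbered 22 with the GC and length correction, 1 with plain moderation and 1 to 7 with a library left out, against 14. Other replication genes numbered 1 with plain moderation and 2 to 11 with a library left out, against 19. Mitosis genes numbered 13 with the GC and length correction, 0 with plain moderation and 0 to 4 with a library left out, against 7. Of all tested genes 1272 passed the stricter rule, 723 did with plain moderation and 461 to 1041 with a library left out.

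The sign turned in 10 genes. It turned with the GC and length correction for CLSPN (-0.0849), DBF4 (-0.0512), E2F2 (0.0184) and ORC4 (-0.0215), and when mitochondrially encoded genes were left out for E2F2 (0.0244) and PRIM1 (0.0226). With a library left out it turned for CLSPN (-0.0547 to 0.130), E2F1 (-0.00262 to 0.124), E2F2 (-0.115 to 0.0925), GINS4 (-0.181 to 0.0196), ORC4 (-0.00316 to 0.276), POLE2 (-0.320 to 0.226), PRIM1 (-0.0812 to 0.0549), PRIM2 (-0.00175 to 0.122) and RFC4 (-0.310 to 0.00635). The cause was not tested. A fit with the replicate number as a block left 11 genes past the adjusted p, with GINS2, FEN1 and CHAF1A no longer among them. Same-numbered libraries did not deviate together across genes (r = -0.00534). Such a correlation does not show how libraries were grown or processed, so whether the replicate numbers mark pairs was not resolved. Where a library was left out, the lone library of its group was assumed to vary like the others. Depth limits low genes to an unknown degree, because TPM keeps no counts. The protein motif search was not run.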
